A study of Mus musculus with 24 samples.

Results

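The genes described are 35 nuclear receptors and coregulators outside the corticosteroid, thyroid hormone, REV-ERB, LXR and NR4A receptors. They were chosen by symbol: all probes other than controls annotated with an accession of a member were collected, and the probe with the highest mean intensity stands for its gene. They are 35 of the 23787 genes with a named probe on the array. Between them they have 68 probes, from 1 to 6 per gene, and 14 members have 1 probe.

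The RNA came from the hippocampus of 48 male Swiss-Webster mice, whose age the labels give as 12 weeks. Treated mice drank water with 100 µg/ml corticosterone and 0.45% hydroxypropyl-β-cyclodextrin over the 12 h of the dark phase, and control mice drank the cyclodextrin vehicle alone. Mice were killed in hour 1, hour 5 or hour 9 of the following light phase, 8 per treatment and hour. The paper states that the controls of each corticosterone group were siblings, and that a group held mice of 5 litters. The labels give no litter, so litter is in no test, and mice that share one were treated as independent. Each of the 24 arrays carried a control mouse in Cy3 and a corticosterone mouse in Cy5, so in any difference at an hour the dye and the treatment cannot be told apart. A constant dye difference cancels between hours within a treatment, and also in the change of the corticosterone effect from hour to hour.

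Nuclear receptors are transcription factors, most of them switched by a small lipid-soluble ligand, and many bind DNA as a pair with a retinoid X receptor. Coactivators and corepressors bind to the receptors and raise or lower transcription from the genes they sit on. Fatty acids, retinoids and sterols are among the ligands, and orphan receptors are those without a settled ligand.

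The arrays were alike in brightness, and their number limits the precision. The median intensity of an array was at least 90.0 in Cy3, with a median of 99.0 over the arrays, and ran from 136 to 185 in Cy5, with a median of 156. The scanner software marked 60.8% to 67.2% of probes as well above background in Cy3 and 64.0% to 73.5% in Cy5. Of the members, 30 were well above background in both channels on all 24 arrays, and 31 had a mean intensity of 50 or more. The arrays lay on 3 slides, which held 2, 3 and 3 arrays of hour 1, the same numbers of hour 5, and 4, 2 and 2 arrays of hour 9. Results are therefore given also with slide as a block and within each slide, where values over 2 to 4 arrays per hour are given and no test was run.

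The first question was whether members change over the light phase in control mice, which shows the diurnal course without added hormone. From hour 1 to hour 9, limma called 0 of 35 members at an adjusted p under 0.05, and 1 had an unadjusted p under 0.05, while 0.516% of all probes were called. Between hours 1 and 5 limma called 0 members, 3 by unadjusted p, beside 0.0053% of all probes. From hour 5 to hour 9 it called 0 members, 1 by unadjusted p, beside 0.0318% of all probes. With so few probes called over the array, 0 members is what the shares of all probes give for a list of 35. The members' median difference from hour 1 to hour 9 was 0.00, with a median absolute difference of 0.05, against 0.09 over all probes and 0.08 over those with a mean intensity of 50 or more. With slide as a block the members' median was also 0.00, and within slides 1, 2 and 3 it was -0.02, 0.00 and 0.02.

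The same comparisons in corticosterone mice show the course after a night with the hormone. From hour 1 to hour 9, 5 members were called (14.3%) against 3.93% of all probes, and 6.41% of the probes with a mean intensity of 50 or more. These were Rara, Rarg, Rxra, Ppara and Nr2e1. At hour 5 against hour 1, Rara and Ppara were called, 2 members (5.71%) against 0.542% of all probes and 0.880% of the brighter ones. From hour 5 to hour 9, limma called 0 members, 3 by unadjusted p, beside 0.668% of all probes. The members' median from hour 1 to hour 9 was 0.02 and the median absolute difference 0.11, against 0.00 and 0.10 over all probes and 0.00 and 0.09 over the brighter ones, so the middle of the list stayed where that of all probes was. Slide as a block gave a median of 0.01, and slides 1, 2 and 3 alone gave 0.03, 0.01 and -0.01. With fewer arrays limma called 1, 2 and 1 members without slides 1, 2 and 3, of which 1, 2 and 0 were among these 5, and the called probes over the array fell from 2227 to 727, 1179 and 995. For hour 5 against hour 1, leaving out any slide left 0 members called by limma.

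**Figure D1:**
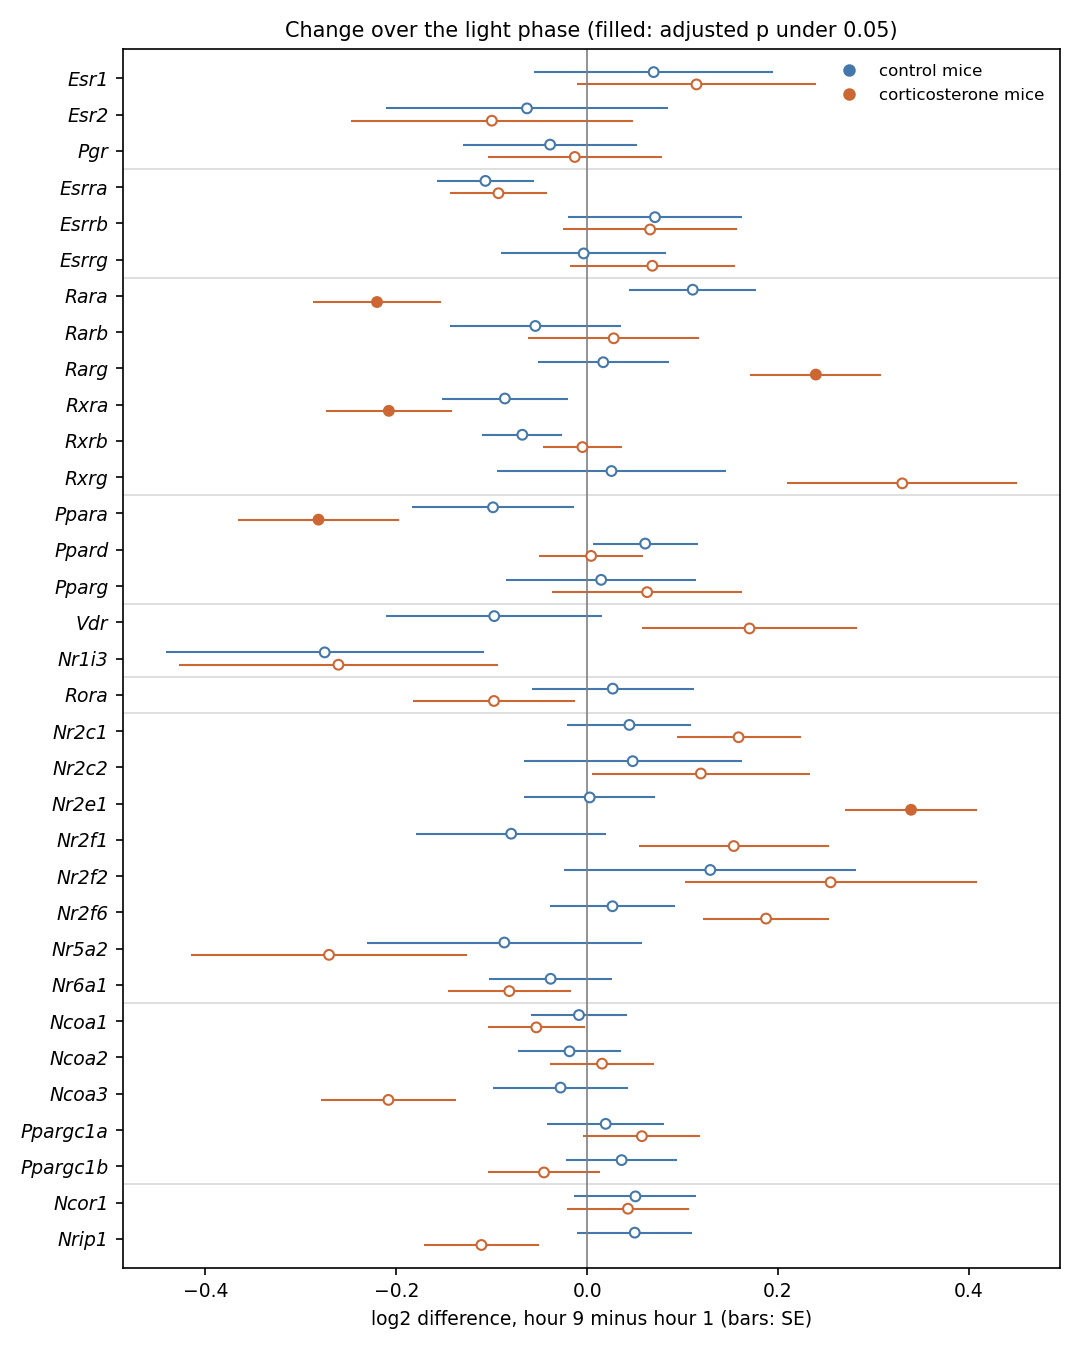
Log2 difference from hour 1 to hour 9 with its SE for 33 members, in control and in corticosterone mice, with filled points for an adjusted p under 0.05. None of the control points is filled, and Rara, Rarg, Rxra, Ppara and Nr2e1 are filled for corticosterone mice.

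The plot of the change from hour 1 to hour 9 sets the control and the corticosterone mice side by side for each member. Whether the course differs between the treatments was tested as a change of the corticosterone effect. That test called Rara and Nr2e1 from hour 1 to hour 9, 2 members (5.71%) against 0.829% of all probes and 1.38% of the brighter ones. Between hours 1 and 5 limma called 0 members, 1 by unadjusted p, beside 0.0389% of all probes. From hour 5 to hour 9 it called 0 members, 2 by unadjusted p, beside 0.0813% of all probes. For Rarg, Rxra and Ppara the course in corticosterone mice is thus not shown to differ from the course in control mice. The members' median change of effect from hour 1 to hour 9 was 0.01, and within slides 1, 2 and 3 it was 0.05, 0.01 and 0.00. The calls of Rara and Nr2e1 both ended when any slide was left out, with 125, 261 and 181 probes then called over the array in place of 469.

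At each hour the corticosterone mice were also compared with their controls, which asks how far the hormone's effect reaches as the light phase goes on. At hour 1, 8 members were called (22.9%) against 17.5% of all probes, at hour 5, 6 members (17.1%) against 18.2%, and at hour 9, 6 members (17.1%) against 13.9%. Among the brighter probes 20%, 20% and 13.8% were called. The members' shares are near those of all probes, and dye is part of every such difference. At hour 1 the called members were Esrra, Rara, Rxrb, Rxrg, Ppara, Nr2c1, Nr2e1 and Ppargc1b. At hour 5 they were Esrra, Rarg, Rxrb, Rxrg, Ppara and Ncoa3, and at hour 9 Esrra, Rara, Rarg, Nr1h4, Nr2f6 and Ncoa3. The members' median absolute difference was 0.10, 0.07 and 0.09 at hours 1, 5 and 9, and over all probes it was 0.13, 0.13 and 0.12, and over the brighter ones 0.10, 0.10 and 0.09. Their medians were 0.01, 0.00 and 0.02, and stayed between -0.05 and 0.04 within each slide. The plot of the effect by hour shows the called members at the 3 hours. Leaving out slide 2 or 3 gave 4 called members at hour 1, slide 1 or 3 gave 2 and 3 at hour 5 (2 and 2 of them among the 6), and slides 1, 2 and 3 gave 1, 3 and 3 at hour 9. The called probes over the array also went down, from 9927 to 4525 and 5308 at hour 1, from 10275 to 6020 and 4109 at hour 5, and from 7868 to 1807, 4716 and 4923 at hour 9. Over all comparisons 13 members (37.1%) were called at least once, with 29 called differences, against 31.7% of all probes and 33.5% of the brighter ones. In the comparisons free of a constant dye difference these shares were 14.3%, 4.43% and 7.16%. Of these 29, 28 had the same sign within all 3 slides and 28 were called with slide as a block, while 11, 12 and 9 were called without slides 1, 2 and 3, and 4 were called whichever slide was left out. The slides hold the same arrays that gave the calls, so a shared sign is favoured by the choice of called differences and is no independent check.

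**Figure D2:**
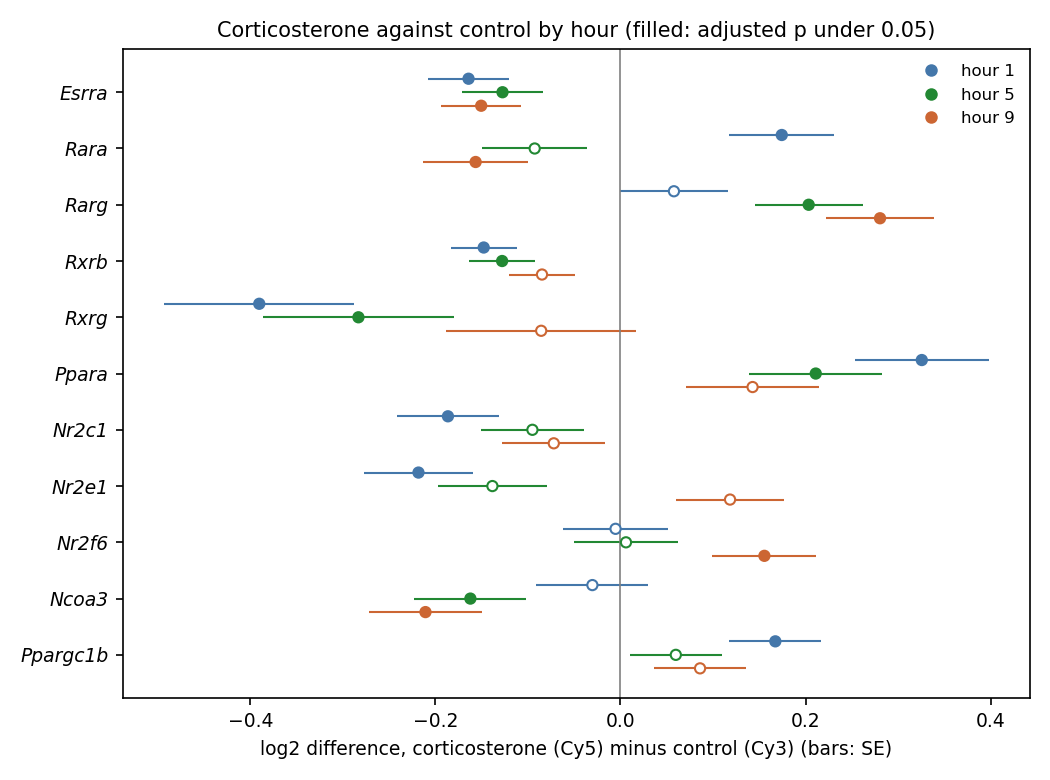
Log2 difference of corticosterone over control mice with its SE at hours 1, 5 and 9 for the members called at an hour other than Nr1h4, with filled points for an adjusted p under 0.05. Ppara lies above 0 and Esrra below 0 at every hour, and by the brightest probes Rara and Nr2e1 lie on opposite sides of 0 at hour 1 and hour 9, with dye a part of each value.

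The retinoid receptors respond to vitamin A derivatives: retinoic acid receptors (Rara, Rarb, Rarg) bind retinoic acid, and the retinoid X receptors (Rxra, Rxrb, Rxrg) are the common partners of other receptors. Rara was read by probe A_55_P2095345. In corticosterone mice its intensity at hour 1 ran from 1675 to 2363 with a median of 2130.2 (mean 2086 ± 248 SD, n = 8). At hour 5 it ran from 1570.5 to 1999 with a median of 1711 (mean 1729 ± 126 SD, n = 8) and at hour 9 from 1508 to 2077 with a median of 1784 (mean 1787 ± 182 SD, n = 8). Rara thus fell by 0.22 (SE 0.07, adjusted p 0.0327) on the log2 scale from hour 1 to hour 9 and by 0.26 (SE 0.07, adjusted p 0.0303) from hour 1 to hour 5. The groups overlapped, and 4 of the 8 mice of hour 1 lay above every mouse of hour 9. With slide as a block the differences were -0.23 (adjusted p 0.0224) and -0.26 (adjusted p 0.0251), and within slides 1, 2 and 3 they were -0.38, -0.23 and -0.12 to hour 9 and -0.48, -0.22 and -0.16 to hour 5. The call to hour 9 ended without slide 1 (-0.18, adjusted p 0.396), without slide 2 (-0.24, adjusted p 0.120), without slide 3 (-0.26, adjusted p 0.0964), and with offset 0 for p values or the corticosterone channel alone, and over its alternatives the adjusted p ran from 0.0109 to 0.396. To hour 5 it ended without slide 1 (-0.19, adjusted p 0.339), without slide 2 (-0.29, adjusted p 0.188), without slide 3 (-0.32, adjusted p 0.190), and with offset 0 for p values or the corticosterone channel alone, with adjusted p from 0.00406 to 0.339.

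In control mice Rara ran from 1671 to 2058 with a median of 1741 (mean 1843 ± 175 SD, n = 8) at hour 1, from 1635 to 2115 with a median of 1808 (mean 1845 ± 148 SD, n = 8) at hour 5 and from 1811 to 2133 with a median of 1965 (mean 1985 ± 109 SD, n = 8) at hour 9, and the difference from hour 1 to hour 9 was 0.11 (SE 0.07, adjusted p 0.594). Corticosterone over control was 0.17 (SE 0.06, adjusted p 0.0185) at hour 1, higher on 6 of 8 arrays, -0.09 (SE 0.06, adjusted p 0.239) at hour 5, higher on 2, and -0.16 (SE 0.06, adjusted p 0.0417) at hour 9, higher on 1. Dye is part of each of these values. The change of the Rara effect from hour 1 to hour 9 was -0.33 (SE 0.08, adjusted p 0.0138), free of a constant dye difference. Its block value was -0.33 (adjusted p 0.0147) and its values within slides 1, 2 and 3 were -0.49, -0.27 and -0.28. The change was no longer called without slide 1 (-0.27, adjusted p 0.384), without slide 2 (-0.38, adjusted p 0.0728) and without slide 3 (-0.35, adjusted p 0.183), and the adjusted p ran from 0.00254 to 0.384 over its alternatives. At hour 1 the difference was no longer called without slide 1 (0.12, adjusted p 0.147) and without slide 3 (0.18, adjusted p 0.120), with adjusted p from 0.00191 to 0.147, and at hour 9 without slide 1 (-0.15, adjusted p 0.244), without slide 2 (-0.15, adjusted p 0.151), without slide 3 (-0.17, adjusted p 0.105), and with offset 0 for p values, Aquantile or the authors' ratios, with adjusted p from 0.0275 to 0.244. Within slides 1, 2 and 3 the hour 1 values were 0.32, 0.08 and 0.17 and the hour 9 values -0.17, -0.18 and -0.11. A dimmer Rara probe, A_55_P2095342, was called at hour 1 (0.39), had 0.20 and 0.21 at hours 5 and 9 without a call, and had 0.12 from hour 1 to hour 9 and -0.01 to hour 5 in corticosterone mice and -0.18 for the change of effect, all uncalled. The fall of Rara in corticosterone mice, its lower value at hour 9 and its change of effect therefore rest on the brighter probe.

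**Figure D3:**
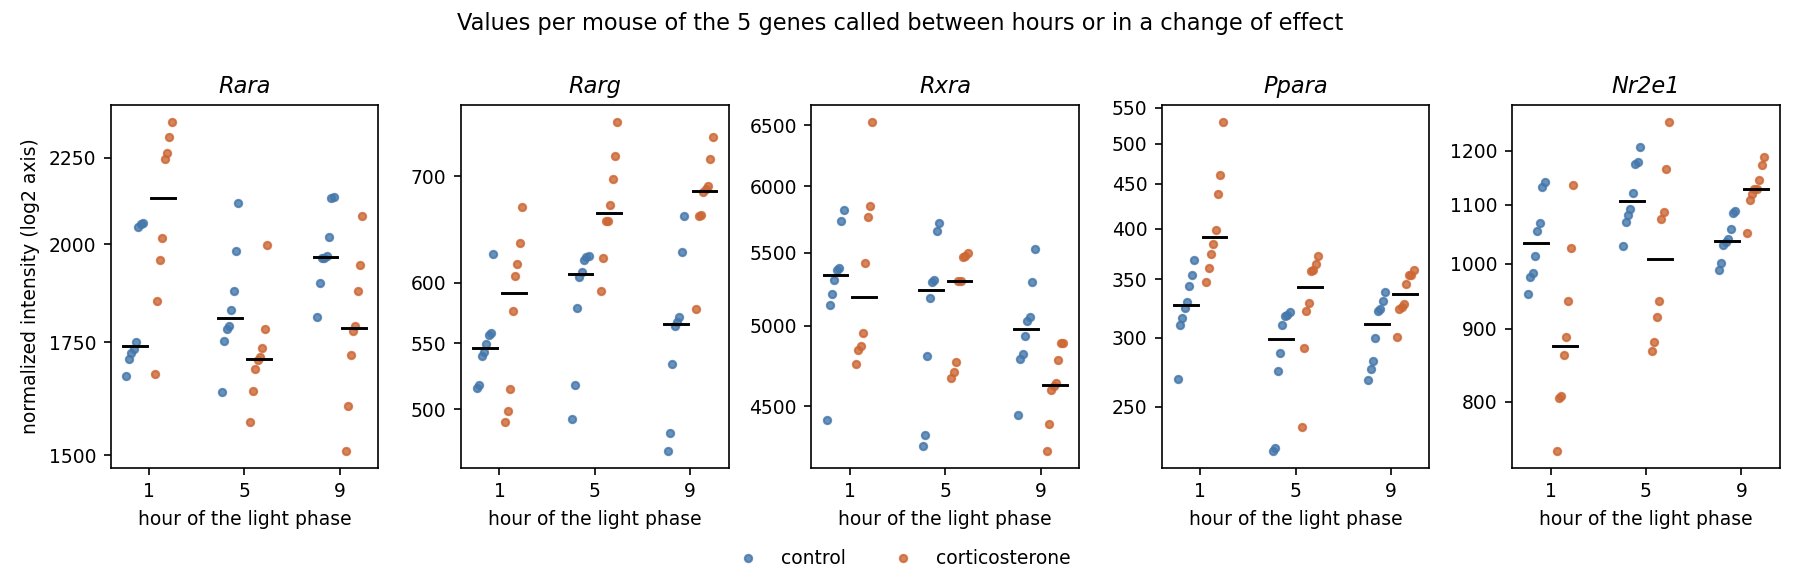
Normalized intensity (log axis) of Rara, Rarg, Rxra, Ppara and Nr2e1 in each mouse at hours 1, 5 and 9, control and corticosterone mice apart, with bars for the median. The groups overlap in every panel, and Ppara in corticosterone mice at hour 1 reaches 530.3.

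The plot of values per mouse shows how wide the groups are for Rara and the 4 further members called between hours. Rarg (A_55_P2151056) took the opposite course to Rara in corticosterone mice. It ran from 491 to 669 with a median of 591 (mean 576 ± 67.4 SD, n = 8) at hour 1, from 593 to 757 with a median of 664 (mean 672 ± 52.8 SD, n = 8) at hour 5 and from 578 to 741 with a median of 686 (mean 677 ± 48.3 SD, n = 8) at hour 9. Rarg rose by 0.24 (SE 0.07, adjusted p 0.0210) from hour 1 to hour 9, and the groups overlapped, with 5 mice of hour 9 above every mouse of hour 1. The rise was 0.25 (adjusted p 0.0161) with slide as a block and 0.29, 0.09 and 0.38 within slides 1, 2 and 3, and it was no longer called without slide 1 (0.24, adjusted p 0.268) and without slide 3 (0.17, adjusted p 0.275), with adjusted p from 0.00681 to 0.275 over its alternatives. Control mice ran from 516 to 626 with a median of 546 (mean 551 ± 34.2 SD, n = 8), from 493 to 623 with a median of 608 (mean 584 ± 51 SD, n = 8) and from 471 to 661 with a median of 566 (mean 559.7 ± 64.9 SD, n = 8) at the same hours, a difference of 0.02 from hour 1 to hour 9. Corticosterone over control was 0.06 at hour 1 (higher on 4 of 8 arrays), 0.20 (SE 0.06, adjusted p 0.00756) at hour 5 and 0.28 (SE 0.06, adjusted p 4.48e-04) at hour 9, higher on 8 of 8 arrays at both later hours. The hour 9 difference, with 0.25, 0.29 and 0.33 within the slides, was called in every alternative tested (adjusted p from 1.14e-04 to 0.0291). At hour 5, with 0.10, 0.18 and 0.30 within the slides, the call ended without slide 2 (0.22, adjusted p 0.0521) and without slide 3 (0.15, adjusted p 0.159), with adjusted p from 0.00359 to 0.159. The change of the Rarg effect from hour 1 to hour 9, 0.22 (SE 0.08, adjusted p 0.316), was not called, so a constant dye difference has not been separated from the hour 5 and hour 9 values.

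Rxra (A_55_P2931478) ran from 4759 to 6529 with a median of 5191 (mean 5375 ± 632 SD, n = 8) in corticosterone mice at hour 1, from 4671 to 5501 with a median of 5304 (mean 5150.1 ± 369 SD, n = 8) at hour 5 and from 4244 to 4892 with a median of 4629 (mean 4631 ± 227 SD, n = 8) at hour 9. It fell by 0.21 (SE 0.07, adjusted p 0.0478) from hour 1 to hour 9, with 5 of 8 mice of hour 1 above every mouse of hour 9. With slide as a block the fall was -0.20 (adjusted p 0.0502) and no longer called, and within slides it was -0.16, -0.12 and -0.29. It also ended without slide 1 (-0.20, adjusted p 0.406), without slide 2 (-0.25, adjusted p 0.0555), without slide 3 (-0.16, adjusted p 0.394), and with offset 0 for p values, median centring, the scanner's processed signals, a variance trend, outlier spots kept or the corticosterone channel alone, and 10 of the 14 alternatives that tested it gave no call, with adjusted p from 0.0416 to 0.406. The Rxra result is thus at the edge of what the arrays can tell. Control mice ran from 4422 to 5817 with a median of 5343 (mean 5300.1 ± 427 SD, n = 8), from 4273 to 5720.3 with a median of 5241 (mean 5073 ± 553 SD, n = 8) and from 4451 to 5525 with a median of 4981 (mean 4987 ± 327 SD, n = 8), a difference of -0.09 (SE 0.07, adjusted p 0.704) from hour 1 to hour 9, and the change of effect was -0.12 (SE 0.08, adjusted p 0.843). A dimmer Rxra probe, well above background in both channels on 4 arrays, had 0.07 from hour 1 to hour 9.

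Rxrb (A_55_P2008609) and Rxrg (A_51_P513311) were called only at an hour, where dye and treatment cannot be told apart. For Rxrb the lowest, median and highest values at hour 1 were 7709, 8593 and 9164 (mean 8500.1 ± 493 SD) in control and 7147, 7767 and 8128 (mean 7668 ± 355 SD) in corticosterone mice. At hour 5 they were 7982, 8501 and 9644 (mean 8569 ± 524 SD) and 7364, 7687 and 8876 (mean 7842 ± 472 SD), and at hour 9 7857, 7981 and 8400.5 (mean 8100.1 ± 243 SD) and 7239, 7593 and 8507 (mean 7643 ± 386 SD). Corticosterone over control was -0.15 (SE 0.04, adjusted p 7.66e-04) at hour 1, higher on 1 of 8 arrays, and -0.13 (SE 0.04, adjusted p 0.00340) at hour 5, higher on 0, and the groups overlapped. Both Rxrb calls held in every alternative tested, with adjusted p from 2.37e-04 to 0.0470 and 0.00135 to 0.0443, and within slides 1, 2 and 3 they were -0.07, -0.18 and -0.17 and -0.14, -0.12 and -0.13. Dimmer Rxrb probes were uncalled at hour 1 and had 0.15 and 0.12, and at hour 5, also uncalled, 0.14 and 0.00, so the lower Rxrb value rests on the brightest probe. Rxrg had 515, 702 and 858 (mean 703 ± 101 SD) in control and 397, 556 and 611 (mean 536 ± 77.0 SD) in corticosterone mice at hour 1, 504, 765 and 806 (mean 702 ± 118 SD) and 352, 619 and 701 (mean 582 ± 124 SD) at hour 5, and 612, 692 and 875 (mean 713 ± 92.0 SD) and 579, 641 and 834 (mean 672 ± 89.1 SD) at hour 9. The Rxrg difference was -0.39 (SE 0.10, adjusted p 0.00433) at hour 1 (higher on 0 of 8 arrays) and -0.28 (SE 0.10, adjusted p 0.0390) at hour 5 (higher on 2), with groups that overlapped. Within slides it was -0.33, -0.31 and -0.52 and -0.20, -0.36 and -0.26. At hour 1 it was no longer called without slide 3 (-0.32, adjusted p 0.149), with adjusted p from 0.00175 to 0.149, and at hour 5 without slide 1 (-0.31, adjusted p 0.0986), without slide 2 (-0.24, adjusted p 0.0835) and without slide 3 (-0.30, adjusted p 0.202), with adjusted p from 0.0233 to 0.202. In the change of effect from hour 1 to hour 9 neither was called, Rxrb at 0.06 (SE 0.05, adjusted p 0.906) and Rxrg at 0.30 (SE 0.15, adjusted p 0.622). Rarb was not called by its brightest probe, and a dimmer one (A_55_P2099585), well above background in both channels on 1 array, was called at hour 5 (adjusted p 0.0316). Its control channel was well above background on 1 array of hour 5, so no fold is given.

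Promoters are shown for Rara, Rarg and Rxra because they are the members called between hours whose window holds 1 of 3 receptor or clock letters: AGGTCA (nuclear receptor core), AGAACA (steroid receptor core) or CACGTG (clock E-box). Windows are from RefSeq on GRCm38.p6, 250 bases before to 50 after a transcription start, written 5′ to 3′ on the gene's strand with the match in capitals. Of the members' 52 windows (32 members), 9 hold AGGTCA (17.3%) against 16.3% of all 32851 windows, 5 hold AGAACA (9.62%) against 19%, and 4 hold CACGTG (7.69%) against 7.15%. The Rara window chr11:98937446-98937745 on the + strand holds CACGTG at bases 263 to 268.
Rara: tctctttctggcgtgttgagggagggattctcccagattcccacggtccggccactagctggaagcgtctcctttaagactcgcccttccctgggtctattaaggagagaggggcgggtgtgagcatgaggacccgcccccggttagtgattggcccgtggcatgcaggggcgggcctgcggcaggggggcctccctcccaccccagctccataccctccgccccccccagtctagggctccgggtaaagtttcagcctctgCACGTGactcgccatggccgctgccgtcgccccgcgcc
A further Rara window, chr11:98964622-98964921 on the + strand, holds AGGTCA at bases 284 to 289.
Rara: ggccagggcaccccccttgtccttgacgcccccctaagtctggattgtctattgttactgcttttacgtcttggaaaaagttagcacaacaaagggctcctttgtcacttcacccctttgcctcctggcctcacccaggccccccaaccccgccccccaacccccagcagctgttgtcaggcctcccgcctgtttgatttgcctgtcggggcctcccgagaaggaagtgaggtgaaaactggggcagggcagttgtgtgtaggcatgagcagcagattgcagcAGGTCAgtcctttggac
The Rarg window chr15:102257473-102257772 on the - strand holds AGGTCA on the opposite strand, read as TGACCT, at bases 26 to 31.
Rarg: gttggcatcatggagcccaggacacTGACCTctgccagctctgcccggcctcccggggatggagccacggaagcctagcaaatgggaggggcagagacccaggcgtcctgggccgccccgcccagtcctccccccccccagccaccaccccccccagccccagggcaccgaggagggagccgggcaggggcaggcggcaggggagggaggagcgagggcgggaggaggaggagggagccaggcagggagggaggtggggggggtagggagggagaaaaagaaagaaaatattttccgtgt
The Rxra window chr2:27709042-27709341 on the + strand holds AGGTCA at bases 203 to 208 and, on the opposite strand, at bases 164 to 169.
Rxra: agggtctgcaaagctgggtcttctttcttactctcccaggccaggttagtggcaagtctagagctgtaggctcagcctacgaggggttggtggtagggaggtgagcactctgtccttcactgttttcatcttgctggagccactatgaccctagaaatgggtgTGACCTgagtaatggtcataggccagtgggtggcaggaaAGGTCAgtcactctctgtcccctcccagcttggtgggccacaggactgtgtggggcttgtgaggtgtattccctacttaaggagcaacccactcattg
The windows of Ppara and Nr2e1 hold none of these letters.

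The peroxisome proliferator-activated receptors are fatty acid sensors, and Ppara drives genes of fatty acid breakdown. Ppara (A_55_P2055854) ran from 347 to 530.3 with a median of 391 (mean 412 ± 61.3 SD, n = 8) in corticosterone mice at hour 1, from 237 to 372 with a median of 343 (mean 329 ± 45.9 SD, n = 8) at hour 5 and from 300.4 to 359 with a median of 337 (mean 336 ± 20.2 SD, n = 8) at hour 9. It fell by 0.28 (SE 0.08, adjusted p 0.0288) from hour 1 to hour 9 and by 0.32 (SE 0.08, adjusted p 0.0419) from hour 1 to hour 5. The groups overlapped, and 7 of 8 mice of hour 1 lay above every mouse of hour 9. Slide as a block gave -0.28 (adjusted p 0.0422) and -0.32 (adjusted p 0.0466), and within slides 1, 2 and 3 the values were -0.24, -0.22 and -0.35 to hour 9 and -0.16, -0.29 and -0.47 to hour 5. The call to hour 9 was lost without slide 1 (-0.28, adjusted p 0.335), without slide 2 (-0.31, adjusted p 0.116), without slide 3 (-0.24, adjusted p 0.131), and with offset 0 for p values or the corticosterone channel alone, with adjusted p from 0.0205 to 0.335 over its alternatives. The call to hour 5 was lost without slide 1 (-0.38, adjusted p 0.130), without slide 2 (-0.35, adjusted p 0.257), without slide 3 (-0.23, adjusted p 0.540), and with offset 0 for p values, median centring, the scanner's processed signals, a variance trend or the corticosterone channel alone, which is 8 of the 14 alternatives that tested it, with adjusted p from 0.0352 to 0.540.

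Control mice ran from 269 to 368 with a median of 327 (mean 327 ± 30.3 SD, n = 8) for Ppara at hour 1, from 222 to 321 with a median of 299 (mean 284 ± 41.1 SD, n = 8) at hour 5 and from 268 to 339 with a median of 311 (mean 305 ± 27.1 SD, n = 8) at hour 9, with -0.10 (SE 0.08, adjusted p 0.736) from hour 1 to hour 9. From hour 1 to hour 5 the control difference was -0.21 (SE 0.08, adjusted p 0.611), with an unadjusted p of 0.0142 and not called. Ppara was higher in the corticosterone channel on 8 of 8 arrays at each hour, with 0.33 (SE 0.07, adjusted p 5.95e-04) at hour 1, 0.21 (SE 0.07, adjusted p 0.0302) at hour 5 and 0.14 (SE 0.07, adjusted p 0.174) at hour 9. The hour 1 difference, 0.28, 0.21 and 0.47 within the slides, was called in every alternative tested (adjusted p from 1.08e-04 to 0.0311), while at hour 5, with 0.21, 0.28 and 0.14, the call ended without slide 1 (0.21, adjusted p 0.118) and without slide 2 (0.17, adjusted p 0.256), with adjusted p from 0.00600 to 0.256. The change of the Ppara effect was -0.18 (SE 0.10, adjusted p 0.728) from hour 1 to hour 9 and -0.11 (SE 0.10, adjusted p 1.00) from hour 1 to hour 5, neither of them called. A dimmer probe (A_55_P2071596) had the same calls from hour 1 to hour 9 (-0.35) and at hour 1 (0.32), and -0.03 at hour 9. It was not called from hour 1 to hour 5 in corticosterone mice, with -0.35 (SE 0.11, adjusted p 0.121), nor at hour 5, with 0.15 (SE 0.09, adjusted p 0.297). Ppard and Pparg were not called in any comparison.

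**Figure D4:**
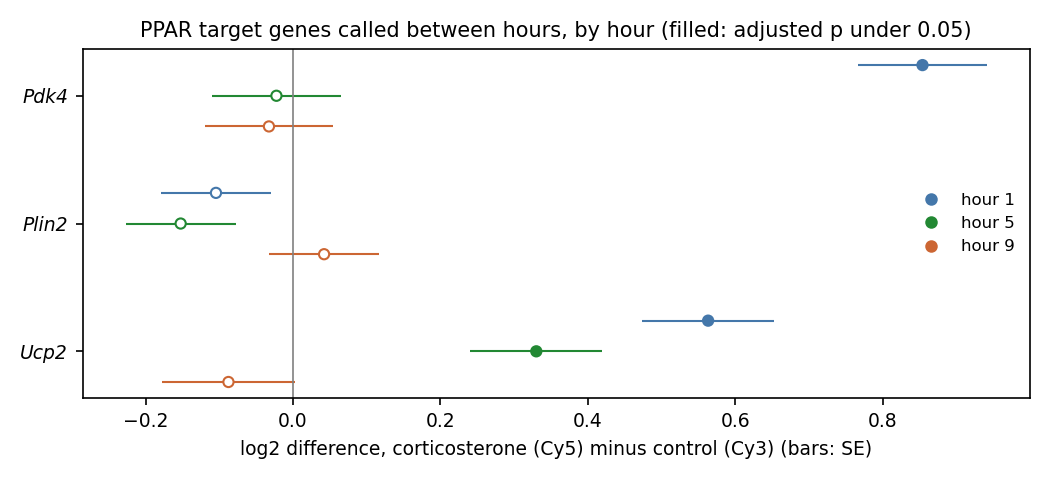
Log2 difference of corticosterone over control mice with its SE at hours 1, 5 and 9 for the PPAR target genes Pdk4, Plin2 and Ucp2, with filled points for an adjusted p under 0.05. Pdk4 goes from 0.85 at hour 1 to -0.03 at hour 9, and Ucp2 from 0.56 to -0.09.

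Of 10 PPAR target genes, 3 were called in corticosterone mice from hour 1 to hour 9 and are drawn in the plot of these targets, 1 of them higher and 2 lower, beside the 2227 of 56605 probes. Pdk4 fell by 1.06 (SE 0.10, adjusted p 1.29e-10), from a median of 945 to 441, Ucp2 fell by 0.35 (SE 0.11, adjusted p 0.0226) and Plin2 rose by 0.28 (SE 0.09, adjusted p 0.0365). The Pdk4 effect fell by 0.89 (SE 0.12, adjusted p 2.43e-06) from hour 1 to hour 9 and by 0.88 (SE 0.12, adjusted p 2.29e-05) from hour 1 to hour 5, and the Ucp2 effect fell by 0.65 (SE 0.13, adjusted p 0.00149) from hour 1 to hour 9. The 4 Pdk4 calls, 1 of them a fall to hour 5 in corticosterone mice of 0.84 (SE 0.10, adjusted p 1.95e-07), held in every alternative tested, with values within slides 1, 2 and 3 of -0.86, -0.96 and -1.38 from hour 1 to hour 9. The Ucp2 change of effect ended without slide 3 (-0.67, adjusted p 0.0620), with adjusted p from 2.84e-04 to 0.0620 over its alternatives, and its fall in corticosterone mice without slide 2 (-0.34, adjusted p 0.160), without slide 3 (-0.29, adjusted p 0.283), and with offset 0 for p values or the corticosterone channel alone, with adjusted p from 0.0147 to 0.283. The Plin2 rise ended without slide 1 (0.26, adjusted p 0.486), without slide 2 (0.29, adjusted p 0.158), and with offset 0 for p values or the corticosterone channel alone, with adjusted p from 0.0260 to 0.486. At hours 1, 5 and 9, 5, 4 and 3 of the 10 targets were called, all higher with corticosterone, against 17.5%, 18.2% and 13.9% of all probes, and dye is part of each. The targets' median was 0.15 at hour 1, and 0.14, 0.21 and 0.11 within the slides. From hour 1 to hour 9 in corticosterone mice it was -0.05. Whether Ppara acts on these targets was not tested.

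The orphan receptors other than Rora are a mixed group, in which Nr2e1 (TLX) keeps neural stem cells dividing, Nr2c1 is a testicular receptor and Nr2f6 belongs to the COUP family. Nr2e1 (A_52_P47566) ran from 739 to 1135 with a median of 875 (mean 900.3 ± 129.8 SD, n = 8) in corticosterone mice at hour 1, from 868 to 1257 with a median of 1008 (mean 1024 ± 144 SD, n = 8) at hour 5 and from 1051 to 1187 with a median of 1128 (mean 1129.8 ± 41.8 SD, n = 8) at hour 9. It rose by 0.34 (SE 0.07, adjusted p 5.42e-04) from hour 1 to hour 9, the smallest adjusted p among the members' changes between hours, and 7 of 8 mice of hour 1 lay below every mouse of hour 9. The rise was 0.34 (adjusted p 7.68e-04) with slide as a block and 0.19, 0.37 and 0.43 within slides 1, 2 and 3, and it ended without slide 3 (0.29, adjusted p 0.0707), with adjusted p from 3.13e-04 to 0.0707 over its alternatives. Control mice ran from 952 to 1141 with a median of 1033 (mean 1040.3 ± 70.4 SD, n = 8) at hour 1, from 1029 to 1206 with a median of 1106 (mean 1119 ± 61.9 SD, n = 8) at hour 5 and from 989.6 to 1089 with a median of 1037 (mean 1041 ± 35.8 SD, n = 8) at hour 9, so that the difference from hour 1 to hour 9 was 0.00 (SE 0.07, adjusted p 0.987). Corticosterone over control went from -0.22 (SE 0.06, adjusted p 0.00468) at hour 1, higher on 1 of 8 arrays, over -0.14 at hour 5 (adjusted p 0.0767), higher on 2, to 0.12 at hour 9 (adjusted p 0.152), higher on 8. The change of effect from hour 1 to hour 9 was 0.34 (SE 0.08, adjusted p 0.0176), 0.34 (adjusted p 0.0253) with the block and 0.21, 0.37 and 0.40 within the slides, so Nr2e1 moved the opposite way to Rara. That call ended without slide 1 (0.38, adjusted p 0.193), without slide 2 (0.31, adjusted p 0.114) and without slide 3 (0.31, adjusted p 0.370), with adjusted p from 0.00583 to 0.370. At hour 1, with -0.10, -0.28 and -0.24 within the slides, the call ended without slide 2 (-0.18, adjusted p 0.0586) and without slide 3 (-0.20, adjusted p 0.0921), with adjusted p from 7.73e-04 to 0.0921. A dimmer Nr2e1 probe (A_51_P503042) was called in the same comparisons, with 0.31 between the hours, -0.26 at hour 1 and 0.34 for the change of effect.

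**Figure D5:**
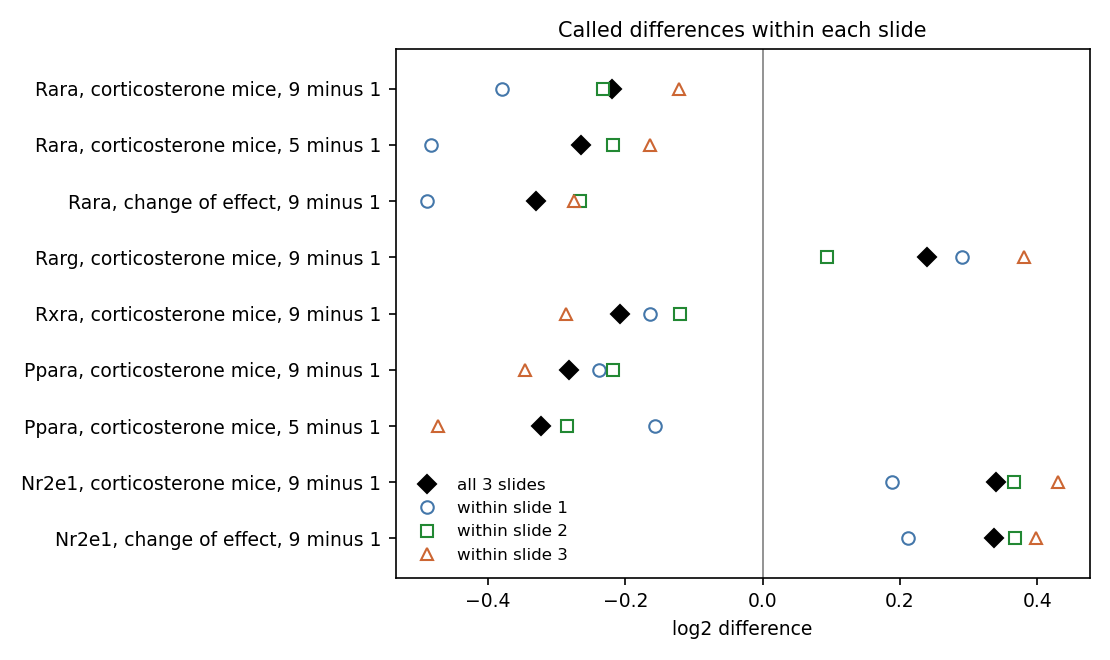
Log2 differences of the members called between hours or in a change of effect, over all arrays and within slides 1, 2 and 3. All values within slides have the sign of the value over all arrays, which are the same arrays that gave the calls.

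The plot of differences within slides shows how far Rara, Rarg, Rxra, Ppara and Nr2e1 vary from slide to slide. Nr2c1 (A_55_P1981724) was called at hour 1 alone, with a lowest, median and highest value of 472, 571 and 647 (mean 566 ± 50 SD) in control and 406, 489 and 648 (mean 500.2 ± 75.4 SD) in corticosterone mice. At hour 5 it had 549, 596 and 721 (mean 608 ± 54.5 SD) and 536, 553 and 715 (mean 569.5 ± 60.2 SD), and at hour 9 543, 586 and 594 (mean 582 ± 16.4 SD) and 516, 556 and 590.2 (mean 553 ± 21.4 SD). The groups overlapped. The difference at hour 1 was -0.19 (SE 0.06, adjusted p 0.0105), higher on 1 of 8 arrays, -0.10, -0.32 and -0.11 within the slides, and it ended without slide 2 (-0.11, adjusted p 0.330), with adjusted p from 0.00433 to 0.330. A dimmer Nr2c1 probe (A_55_P2523444), well above background in both channels on 6 arrays, was not called at hour 1 (-0.12, adjusted p 0.463). At hours 5 and 9 it lay on the opposite side of 0 from the brightest probe (-0.10 and -0.07), all uncalled. Its control channel was well above background on 0 arrays of hour 5 and 2 of hour 9, so no fold is given there. Nr2c2 had no call by any probe, and at hour 5 it had 0.23 by the brightest and -0.17 and -0.13 by the others. Nr2f6 (A_51_P184353) was called at hour 9, with 3435, 3915 and 4275 (mean 3869 ± 276 SD) in control and 3938, 4329.6 and 4839.9 (mean 4308 ± 282 SD) in corticosterone mice, after 3314, 3771 and 4302 (mean 3803 ± 336 SD) and 3074, 3929 and 4222 (mean 3795 ± 395 SD) at hour 1 and 3747, 4215 and 5099.8 (mean 4227 ± 479 SD) and 3803, 4258 and 4977 (mean 4235 ± 367 SD) at hour 5. Its difference was 0.16 (SE 0.06, adjusted p 0.0399), higher on 6 of 8 arrays, with overlap, and 0.08, 0.24 and 0.22 within the slides. It ended without slide 1 (0.23, adjusted p 0.101), without slide 2 (0.13, adjusted p 0.192), without slide 3 (0.14, adjusted p 0.160), and with offset 0 for p values or the scanner's processed signals, with adjusted p from 0.0254 to 0.192. Neither Nr2c1 (0.11) nor Nr2f6 (0.16) was called in the change of effect from hour 1 to hour 9, so dye remains part of both.

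The estrogen-related receptors act with PGC-1 coactivators on genes of mitochondrial respiration. Esrra (A_55_P1954306) had a lowest, median and highest value of 8097, 9454 and 9883 (mean 9312 ± 582 SD) in control and 7368, 8280.0 and 9358 (mean 8317 ± 634 SD) in corticosterone mice at hour 1. At hour 5 it had 8599.9, 9035 and 10075 (mean 9208 ± 509 SD) and 7428, 8435 and 9592 (mean 8442 ± 688 SD), and at hour 9 8099, 8618 and 9148 (mean 8639 ± 350.2 SD) and 6828, 7835 and 8477 (mean 7793 ± 513 SD). Corticosterone over control was -0.16 (SE 0.04, adjusted p 0.00283) at hour 1, -0.13 (SE 0.04, adjusted p 0.0200) at hour 5 and -0.15 (SE 0.04, adjusted p 0.00796) at hour 9, and Esrra was higher on 0 of 8 arrays at each hour, with groups that overlapped. Within slides 1, 2 and 3 it was -0.27, -0.15 and -0.11, then -0.24, -0.05 and -0.13, then -0.14, -0.12 and -0.20. The hour 1 call ended without slide 2 (-0.18, adjusted p 0.0528), with adjusted p from 0.00107 to 0.0528, the hour 5 call without slide 1 (-0.09, adjusted p 0.168) and without slide 3 (-0.12, adjusted p 0.103), with adjusted p from 0.0106 to 0.168, and the hour 9 call without slide 1 (-0.16, adjusted p 0.0915), with adjusted p from 0.00340 to 0.0915. The difference was near the same at each hour and its change from hour 1 to hour 9 was 0.01 (SE 0.06, adjusted p 1.00), so for Esrra a constant dye difference and the treatment cannot be told apart. Esrrb and Esrrg were not called. Of 10 target genes of PGC-1 and these receptors, limma called 0 from hour 1 to hour 9 in either treatment (3 by unadjusted p in control and 0 in corticosterone mice), and 4, 4 and 3 at hours 1, 5 and 9, where dye is a part.

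Among the coactivators, Ncoa3 is a p160 protein that recruits histone acetylases and Ppargc1b is the β form of PGC-1. Ncoa3 (A_55_P2183750) had a lowest, median and highest value of 1433, 1682 and 1888 (mean 1691 ± 152 SD) in control and 1399, 1660.3 and 1855 (mean 1656 ± 149.8 SD) in corticosterone mice at hour 1, 1467, 1622 and 2034 (mean 1668 ± 188 SD) and 1208, 1495 and 1703 (mean 1492 ± 171 SD) at hour 5, and 1501, 1688 and 1781 (mean 1655 ± 103 SD) and 1192, 1420.3 and 1599 (mean 1433 ± 134 SD) at hour 9. Its difference was -0.16 (SE 0.06, adjusted p 0.0406) at hour 5, higher on 2 of 8 arrays, and -0.21 (SE 0.06, adjusted p 0.00980) at hour 9, higher on 0, with overlap at both hours. Within slides 1, 2 and 3 it was -0.35, 0.05 and -0.24 at hour 5, with the sign reversed on slide 2, and -0.22, -0.21 and -0.18 at hour 9. The hour 5 call ended without slide 1 (-0.10, adjusted p 0.328), without slide 3 (-0.11, adjusted p 0.401), and with offset 0 for p values, Aquantile, the scanner's processed signals or the authors' ratios, with adjusted p from 0.00678 to 0.401, and the hour 9 call without slide 1 (-0.20, adjusted p 0.151), with adjusted p from 0.00526 to 0.151. Dimmer Ncoa3 probes were uncalled, with -0.01 and 0.18 at hour 5 and 0.03 and 0.16 at hour 9, so the lower value belongs to the brightest probe. Ppargc1b (A_51_P294891) had 1433, 1591 and 1901 (mean 1609 ± 146 SD) in control and 1668, 1806 and 2004 (mean 1804 ± 118 SD) in corticosterone mice at hour 1, 1257, 1607 and 1716 (mean 1560.0 ± 160.1 SD) and 1336, 1662 and 1774 (mean 1624 ± 145 SD) at hour 5, and 1547, 1648 and 1829 (mean 1646 ± 95.5 SD) and 1619, 1762 and 1819 (mean 1746 ± 63.3 SD) at hour 9. It was 0.17 higher at hour 1 (SE 0.05, adjusted p 0.00895) on 8 of 8 arrays, with overlap between the groups and 0.08, 0.14 and 0.25 within the slides. That call ended without slide 2 (0.18, adjusted p 0.0841) and without slide 3 (0.12, adjusted p 0.164), with adjusted p from 0.00115 to 0.164, and a dimmer probe (A_65_P02810) was also called with 0.25. The changes of effect from hour 1 to hour 9 were not called for Ncoa3 (-0.18) or Ppargc1b (-0.08). Ncoa1, Ncoa2 and Ppargc1a had no call.

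The corepressors Ncor1, which carries histone deacetylases to receptors without ligand, and Nrip1, which restrains receptors with ligand, had no call by their brightest probes. Their dimmer probes differed. Ncor1 had -0.12 and -0.10 at hours 1 and 5 by A_66_P130142, -0.30, -0.38 and -0.29 at hours 1, 5 and 9 by A_55_P2739763, and -0.34 at hour 5 by A_55_P2734652, all called, against 0.07, 0.06 and 0.06 by the brightest. The direction for Ncor1 at an hour thus depends on the probe. Nrip1 was called at hour 1 by A_52_P413584 with 0.20. Of the sex steroid receptors, Esr1, Esr2 and Pgr had no call by the brightest probe, and Pgr was called at hour 5 by A_55_P2930103 (-0.28), which was well above background in both channels on 6 arrays.

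In all, 22 members had no call by their brightest probe: Esr1, Esr2, Pgr, Esrrb, Esrrg, Rarb, Ppard, Pparg, Vdr, Nr1i3, Rora, Hnf4a, Nr2c2, Nr2f1, Nr2f2, Nr5a2, Nr6a1, Ncoa1, Ncoa2, Ppargc1a, Ncor1 and Nrip1. Their mean intensities ran from 23.6 to 15843, and 19 of them had 65.6 or more. Among these 19, differences from hour 1 to hour 9 ran from -0.27 (Nr1i3) to 0.13 (Nr2f2) in control mice and from -0.26 (Nr1i3) to 0.26 (Nr2f2) in corticosterone mice. At hour 1 they ran from -0.28 (Nr1i3) to 0.12 (Nrip1), at hour 5 from -0.09 (Nr2f1) to 0.23 (Nr2c2) and at hour 9 from -0.27 (Nr1i3) to 0.18 (Nr2c2). The lowest adjusted p of an uncalled member was 0.0586 (Nr2f1) at hour 1, 0.0721 (Nr2c2) at hour 5 and 0.0679 (Nr5a2) at hour 9. The vitamin D receptor Vdr was well above background in both channels on 7 arrays, the liver receptor homologue Nr5a2 on 5 and the xenobiotic receptor Nr1i3 on 23. A dimmer Nr1i3 probe (A_55_P2746375) was called at hour 5 (adjusted p 0.0488) but was well above background in both channels on 0 arrays, so its fold is not given. Nr1h4 (the bile acid receptor) and Hnf4a were well above background in both channels on 0 of the 24 arrays, so no fold is given. Nr1h4 was called at hour 9 all the same (adjusted p 0.0315), with intensities between 10.1 and 35.5, a call that ended without slide 1, 2 or 3, with limma on the log ratios and with the authors' ratios (adjusted p from 0.00362 to 0.226).

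Outside the members, 18 further nuclear receptors had 1 gene called in control mice from hour 1 to hour 9 (higher) and 4 in corticosterone mice (3 higher, 1 lower), against 0.516% and 3.93% of all probes. Nr1d1 rose by 1.00 (SE 0.13, adjusted p 7.31e-06) in control and 1.10 (SE 0.13, adjusted p 3.70e-08) in corticosterone mice, a clock gene whose course shows that a change over the light phase can be measured on these arrays. In corticosterone mice Nr1d2 rose by 0.24 (SE 0.06, adjusted p 0.00815), Nr3c2 rose by 0.32 (SE 0.07, adjusted p 0.00174) and Nr4a1 fell by 0.55 (SE 0.12, adjusted p 0.00282), and to hour 5 Nr1d1 rose by 0.66 (SE 0.13, adjusted p 0.00330) and Nr4a1 fell by 0.48 (SE 0.12, adjusted p 0.0434). The glucocorticoid receptor Nr3c1 was called in the change of effect, 0.36 (SE 0.08, adjusted p 0.00533) from hour 1 to hour 9 and 0.36 (SE 0.08, adjusted p 0.0255) from hour 5 to hour 9. Corticosterone over control was -0.54, -0.55 and -0.18 for Nr3c1 at hours 1, 5 and 9, all called, with dye a part of each. The change is thus from a larger to a smaller negative difference. Of 18 further coregulators, Hdac3 rose by 0.26 (SE 0.08, adjusted p 0.0347) and Ncoa5 fell by 0.17 (SE 0.06, adjusted p 0.0492) in corticosterone mice from hour 1 to hour 9, 2 of 18 (11.1%) against the same 3.93%. Each kept its sign within all slides, with 0.99, 0.90 and 1.39 for Nr1d1 in corticosterone mice and 0.23, 0.38 and 0.30 for the Nr3c1 change from hour 1 to hour 9 on slides 1, 2 and 3, and 0.61, 0.09 and 0.35 for its change from hour 5. The Nr1d1 rise in corticosterone mice was called whichever slide was left out, and in control mice it ended without slide 1 (0.92, adjusted p 0.0745), with adjusted p from 2.44e-06 to 0.0745. The Nr1d1 rise to hour 5 ended without slide 1 (0.64, adjusted p 0.115) and without slide 3 (0.50, adjusted p 0.253), with adjusted p from 0.00282 to 0.253. The Nr1d2 call ended without slide 1 (0.20, adjusted p 0.360) and without slide 2 (0.24, adjusted p 0.0703), with adjusted p from 0.00314 to 0.360, and the Nr3c2 call without slide 2 (0.31, adjusted p 0.0511) and without slide 3 (0.26, adjusted p 0.0782), with adjusted p from 0.00116 to 0.0782. Nr4a1 lost its call to hour 9 without slide 1 (-0.52, adjusted p 0.151) and without slide 2 (-0.41, adjusted p 0.115), with adjusted p from 8.62e-04 to 0.151, and its call to hour 5 without slide 1 (-0.40, adjusted p 0.380), without slide 2 (-0.52, adjusted p 0.154), without slide 3 (-0.54, adjusted p 0.190), and with offset 0 for p values, median centring, Aquantile, the scanner's processed signals, outlier spots kept or the corticosterone channel alone, with adjusted p from 0.0351 to 0.380. Nr3c1 lost the change from hour 1 without slide 1 (0.34, adjusted p 0.174), without slide 2 (0.32, adjusted p 0.0853) and without slide 3 (0.37, adjusted p 0.132), with adjusted p from 0.00198 to 0.174, and the change from hour 5 without slide 1 (0.22, adjusted p 1.00), without slide 3 (0.35, adjusted p 0.509), and with offset 0 for p values, the scanner's processed signals, limma on log ratios or the authors' ratios, with adjusted p from 0.00255 to 1.00. The Hdac3 call ended without slide 1 (0.23, adjusted p 0.274), without slide 2 (0.26, adjusted p 0.129), without slide 3 (0.24, adjusted p 0.198), and with offset 0 for p values or the corticosterone channel alone, with adjusted p from 0.0237 to 0.274. The Ncoa5 call ended with slide as a block (adjusted p 0.0787) and without slide 1 (-0.21, adjusted p 0.201), without slide 2 (-0.17, adjusted p 0.260), without slide 3 (-0.13, adjusted p 0.269), and with offset 0 for p values, median centring, Aquantile, the scanner's processed signals, a variance trend, outlier spots kept or the corticosterone channel alone, with adjusted p from 0.0366 to 0.269. The 10 genes of retinoic acid synthesis, transport and breakdown had 0 calls by limma from hour 1 to hour 9 in either treatment (2 by unadjusted p in control, 1 in corticosterone mice), and with 0.516% and 3.93% of all probes called, 0 of 10 does not set this list apart.

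The tissue was checked against markers, since RNA from other cells or regions can move with a member. The 10 hippocampal markers were all measured, with Zbtb20 the brightest, and so were the 5 neuronal ones with Snap25 the brightest. Of the neocortical list 5 of 6 genes have a probe, and in the striatal list Drd2 was well above background in both channels on 0 arrays. In corticosterone mice from hour 1 to hour 9, where Rara, Rxra and Ppara fell and Rarg and Nr2e1 rose, 2 of 10 hippocampal markers were called, Dsp (-0.53) and Spink8 (-0.36). So were 1 of 5 microglial (Cx3cr1, 0.38), 1 of 5 endothelial and mural (Cldn5, 0.26), 1 of 8 choroid plexus (F5, 0.43) and 1 of 5 neocortical markers (Rspo1, 0.43), beside 3.93% of all probes and 6.41% of the brighter ones. Of these calls, Spink8 held whichever slide was left out, and Cx3cr1 did too but ended with the processed signals of the scanner software. Dsp ended without slide 1 (-0.52, adjusted p 0.258) and without slide 2 (-0.50, adjusted p 0.102), with adjusted p from 0.00187 to 0.258, and Rspo1 without slide 1 (0.40, adjusted p 0.120) and without slide 2 (0.44, adjusted p 0.0919), with adjusted p from 0.00364 to 0.120. Cldn5 ended without slide 1 (0.18, adjusted p 0.630), without slide 2 (0.31, adjusted p 0.0871), without slide 3 (0.26, adjusted p 0.0749), and with offset 0 for p values or slide as a block (adjusted p 0.0641), with adjusted p from 0.0267 to 0.630, and F5 without slide 1 (0.56, adjusted p 0.101), without slide 2 (0.38, adjusted p 0.238), without slide 3 (0.33, adjusted p 0.239), and with offset 0 for p values, median centring or slide as a block (adjusted p 0.0641), with adjusted p from 0.00994 to 0.239. In other comparisons Cldn5 fell in control mice by 0.35 (SE 0.08, adjusted p 0.0175) from hour 1 and by 0.47 (SE 0.08, adjusted p 0.00214) from hour 5 to hour 9. The call from hour 1 ended without slide 1 (-0.31, adjusted p 0.672) and without slide 2 (-0.40, adjusted p 0.0617), with adjusted p from 0.0111 to 0.672, and that from hour 5 without slide 1 (-0.47, adjusted p 0.591), without slide 2 (-0.55, adjusted p 0.0572) and without slide 3 (-0.40, adjusted p 0.0828), with adjusted p from 0.00156 to 0.591. In corticosterone mice from hour 1 to hour 5 Cldn5 rose by 0.38 (SE 0.08, adjusted p 0.00551) and Cx3cr1 by 0.28 (SE 0.06, adjusted p 0.00831). These ended without slide 1 (0.37, adjusted p 0.0835) and without slide 3 (0.29, adjusted p 0.264) for Cldn5, with adjusted p from 0.00461 to 0.264, and without slide 2 (0.22, adjusted p 0.307), without slide 3 (0.27, adjusted p 0.321) and with the scanner's processed signals for Cx3cr1, with adjusted p from 0.00283 to 0.321. The neocortical marker Lamp5 fell by 0.23 (SE 0.06, adjusted p 0.0493) in corticosterone mice from hour 5 to hour 9. Its call ended without slide 1 (-0.21, adjusted p 0.573), without slide 2 (-0.28, adjusted p 0.113), without slide 3 (-0.22, adjusted p 0.287), and with offset 0 for p values, median centring, the scanner's processed signals, slide as a block (adjusted p 0.0639), a variance trend, outlier spots kept or the corticosterone channel alone, 10 of 14 alternatives, with adjusted p from 0.0413 to 0.573.

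In corticosterone mice from hour 1 to hour 9, among the 5 neuronal, 5 astrocytic, 5 oligodendrocytic, 8 striatal and 5 thalamic markers limma called 0, with 0, 3, 1, 1 and 1 by unadjusted p. The summed intensity of the endothelial and mural markers (brightest Flt1) had medians of 8427, 9725 and 9415 at hours 1, 5 and 9 in corticosterone mice and 11251, 11161 and 10211 in control mice. For the microglial markers (brightest Csf1r) these medians were 13650.4, 14112 and 14724 in corticosterone and 14191, 14703 and 15457 in control mice, and for the choroid plexus (brightest Kl) 1365, 1509 and 1302 and 1488, 1574 and 1252. What part these sources have in the differences of Rara, Rarg, Rxra, Ppara and Nr2e1, or in those at an hour, was not tested. In a bulk tissue fewer cells of a kind and less RNA per cell cannot be told apart.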

How the data were processed

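Each array's scanner file gives, per the file headers, median intensity of every spot and of its local background in green (Cy3) and red (Cy5), and the signals were taken as they stand. The authors also deposited a table, which does not itself state its scale or steps. The paper names background subtraction and Lowess in the scanner software, and normexp, loess and quantile steps in limma, but not which of these made the table. By comparison with the scanner files, the log2 ratios of Cy5 over Cy3 the authors deposited lie closest to values background corrected with normexp and normalized by loess within arrays without the quantile step. The columns are centred near 0 with medians from 0.00239 to 0.00889, and the table served as an alternative. All 48 channels were grouped by treatment and hour as the labels give them, and replicate numbers follow the order of the labels.

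In R 4.3.3 with limma 3.58.1 and statmod 1.5.0, intensities were background corrected with normexp (offset 50 for p values, 0 for log2 differences, SE and printed intensities), normalized by loess within arrays with control and outlier spots given no weight, and by quantiles between arrays. Of 62976 spots, 3671 control spots were left out and copies averaged, leaving 56605 probes, 34566 of them named, and 24570 with a mean intensity under 50. Outlier spots numbered 80 to 276 per array, 0 spots were saturated, and 77 probes lacked a value on 1 array. Differences between the 6 groups were tested with limma's separate channel analysis (intraspot correlation 0.286, prior degrees of freedom 4.94), two-sided, with Benjamini-Hochberg adjustment over all probes in each of 12 comparisons; a gene is called at an adjusted p under 0.05. The steps were tested on simulated data.

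Each member and each gene of the comparison lists was read by its brightest probe. Group values are printed for members called in at least 1 comparison, other probes where their call differs, and genes of other lists where called in a comparison free of a constant dye difference, at most the 10 with the smallest adjusted p; marker genes so called are also named. Other probes that differ in direction alone were planned too, and are given only in part. Members and lists were chosen with earlier results of these data known. Alternatives were no background correction, offset 0 for p values and 50 for differences, median centring, Aquantile, the scanner's processed signals, outlier spots kept, filters on dim probes, any probe of a member, a variance trend, slide as a block, each slide left out or alone, a channel alone, log ratios, and the deposited ratios. Files were read with the packages data.table (version 1.17.8), jsonlite 2.0.0 and pandas 2.3.3, and figures drawn with python 3.11.15 and matplotlib 3.10.9.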

Additional observations from a re-analysis of the deposited data

Results flagged for a closer look

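Among 78 groups of 8 mice, 6 had a mouse far from the others, and chance gives about 1 in 20 groups. Rarg at hour 1 in control replicate 2 was 626 (others 516 to 558), and at hour 9 in corticosterone replicate 3 it was 578 (others 661 to 741). Rxra at hour 1 in control replicate 3 was 4422 (others 5137 to 5817), and Rxrb at hour 9 in corticosterone replicate 1 was 8507 (others 7239 to 7726). Nr2c1 at hour 9 in control replicate 2 was 543 (others 579.5 to 594), and at hour 5 in corticosterone replicate 7 it was 715 (others 536 to 566). Of the called differences, those of Rarg in corticosterone mice from hour 1 to hour 9 and at hour 9 compare a group with such a mouse, and what they are without it was not tested.

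The corticosterone effect differed between hours, by the test of the change itself, for Rara and Nr2e1 among the members and for 4 further genes of the comparison and marker lists. Over the array, 469 probes were called for the change from hour 1 to hour 9, 22 from hour 1 to hour 5 and 46 from hour 5 to hour 9. From hour 1 to hour 9 the change was -0.33 for Rara, 0.34 for Nr2e1, 0.36 for Nr3c1, -0.89 for Pdk4, -0.65 for Ucp2 and 0.60 for Cldn5. From hour 1 to hour 5 it was -0.88 for Pdk4, and from hour 5 to hour 9 it was 0.36 for Nr3c1. For Cldn5 the change (SE 0.10, adjusted p 2.59e-05) was 0.84, 0.35 and 0.62 within slides 1, 2 and 3 and ended without slide 1 (0.48, adjusted p 0.114), with adjusted p from 6.52e-06 to 0.114 over its alternatives.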

How the results depend on the processing

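Of 186 counts of called members under alternatives, 162 stayed within 1.5 times the reported count and 24 did not. The 162 include every count of the comparisons with 0 members reported, which stayed at 0 under all alternatives. All 24 that moved belong to the comparisons with called members, so the 162 do not measure how stable those are. Leaving out slide 1, 2 or 3 gave, in corticosterone mice from hour 1 to hour 9, 1, 2 and 1 members in place of 5 (1, 2 and 0 of them the same), and to hour 5, 0, 0 and 0 in place of 2 by limma. It gave 1, 3 and 3 in place of 6 at hour 9, and 0, 0 and 0 in place of 2 for the change of effect from hour 1 to hour 9. At hour 1, leaving out slide 2 or 3 gave 4 and 4 in place of 8, and at hour 5 slide 1 or 3 gave 2 and 3 in place of 6 (2 and 2 of them the same). These settings have fewer arrays. For the next values the cause was not tested: in corticosterone mice from hour 1 to hour 9, offset 0 gave 2 and the channel alone 2, and to hour 5, offset 0 gave 0, median centring 1, processed signals 1, the variance trend 1 and the channel alone 0. Counting any probe of a member gave 10 in place of 6 at hour 5, from more probes per gene. Of 1088 values of 59 named differences, 1 changed sign: Ncoa3 at hour 5 was 0.047 within slide 2, and the cause was not tested. Among the 1088 are settings that alter the p values alone and keep the reported difference, so its sign could not change there. These are offset 0 for p values, the filters on dim probes, the variance trend, limma on log ratios and a channel alone. Dim signal limits Nr1h4, Hnf4a, Vdr and Nr5a2.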
